A study of Mus musculus with 7 samples.

Results

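The Fc receptors for immunoglobulin G (IgG) were examined in microglia sorted from inside and outside neuronal grafts. The genes were Fcgr1, Fcgr3 and Fcgr4 (activating receptors), Fcgr2b (the inhibitory receptor), Fcer1g (the signalling chain of the activating receptors) and Fcgrt (the neonatal Fc receptor). They were taken by name, 6 of the 55341 gene names with counts, and all 6 were among the 15257 genes that passed the filter on low counts.

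The cells were CD11b+CD45low microglia, the resident macrophages of the brain, from the cortex of 5xFAD mice on a C57BL/6 strain, labelled with an age of 14 weeks. All animals carried the 5xFAD transgenes, mutant human APP and PS1 driven by the neuron-specific Thy1 promoter, and all had received WT embryonic cortical cells by injection 4 weeks earlier. Libraries came from dissected grafts (inside, n = 3) or from small pieces of cortex close to a graft (outside, n = 4), so no group came from an animal without a graft or without the transgenes. The labels do not say whether the libraries came from separate mice or pools, and p-values therefore measure only the spread between these libraries.

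Activating Fcγ receptors bind IgG-coated particles and signal through the ITAM motif of the common γ chain, encoded by Fcer1g, to kinases of the Src family and Syk, which drives phagocytosis and cytokine release. FcγRIIb, encoded by Fcgr2b, carries an inhibitory ITIM motif that recruits the phosphatase SHIP1 (Inpp5d), and the ratio of activating receptors to FcγRIIb sets how readily a macrophage responds to immune complexes. FcRn, encoded by Fcgrt, pairs with β2-microglobulin and returns IgG from endosomes instead of signalling. In the brain, microglia are the main parenchymal cells that carry the signalling receptors, and they are the cells engaged when antibodies coat amyloid.

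Reads counted on genes numbered 23241114 to 25882122 inside and 18644807 to 24599193 outside, and the 9 within-group pairs of libraries all differed by more than counting noise. Of 8 microglia markers, all 8 were detected in every library, with a summed level of 34259 to 39669 CPM (reads of a gene per 1000000 reads counted, TMM-scaled) inside and 40394 to 42981 outside. All 8 had a log2 fold change below 0 (median -0.20), 3 of them lower inside without overlap (5.02% of all tested genes were), and edgeR called 0 with 5 at an unadjusted p below 0.05. The inside libraries also held transcripts of neutrophil and monocyte markers. The 8 neutrophil markers summed to 7506, 794 and 15289 CPM in inside grafts 1, 2 and 3, against 0.311 to 367 CPM outside. The 8 monocyte markers summed to 717, 81.0 and 1484 CPM inside, against 6.56 to 28.3 CPM outside. Most of the monocyte sum inside came from Chil3 (587, 67.6 and 1189 CPM), named after its values were seen. Over the inside libraries Chil3 had the same order as the neutrophil sum, and the cells its reads came from were not tested. Counts in a bulk library cannot tell fewer cells of a type from less RNA per cell.

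In GRCm38, 4 of the genes lie close together on chromosome 1. These are Fcgr2b (chr1:170958617-170976547, minus strand), Fcgr4 (chr1:171018920-171029761, plus strand), Fcgr3 (chr1:171051174-171064935, minus strand) and Fcer1g (chr1:171229572-171234365, minus strand). Fcgr1 (chr3:96282909-96293969) and Fcgrt (chr7:45092990-45103851) lie elsewhere, both on the minus strand. Only Fcgr2b had an exon overlapped by another annotated gene, the antisense transcript Gm38204, which had 0 counts in all libraries together. Within 100 kb of each gene the annotation lists 11 (Fcgr3) to 30 (Fcgr1 and Fcgrt) other genes.

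Fcgr2b and Fcgr3, the inhibitory receptor and an activating one, share coding sequence, which bears on whether their reads can be told apart. Their longest identical coding stretch covers bases 278 to 406 of the 1020 coding bases of Fcgr2b and bases 263 to 391 of the 801 coding bases of Fcgr3, crosses an exon junction in both, and is written here in the sense direction from the GENCODE transcripts:
Fcgr2b and Fcgr3, 129 shared bases: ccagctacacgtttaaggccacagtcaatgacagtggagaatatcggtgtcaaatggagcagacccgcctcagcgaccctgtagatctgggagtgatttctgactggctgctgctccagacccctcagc
Reads were 75 bases long and the counting left out reads with more than 1 alignment, so reads lying wholly within this stretch are lost from both genes. Of the 75-base windows over the exons of Fcgr3, 5.42% (94 of 1733) also occurred in Fcgr2b, and 5.43% of those of Fcgr2b (313 of 5768) occurred in other genes. No window of Fcgr1, Fcgr4, Fcer1g or Fcgrt occurred in another gene, and no other pair of the 4 receptors shared a coding stretch above 14 bases.

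The promoters of Fcgr4 and Fcgr1 are shown because they hold letters of interferon-responsive elements and interferon response genes were measured beside the receptors. The sequences run on each gene's own strand (RefSeq, GRCm38), and capitals mark the core of the myeloid factor PU.1 (GAGGAA, here as its reverse complement), a GAS element (TTCNNNGAA) in Fcgr1 and an ISRE-like element (GAAA, any 2 bases, then GAAA, the site of interferon regulatory factors) in Fcgr4:
Fcgr4, chr1:171018806-171018919, plus strand: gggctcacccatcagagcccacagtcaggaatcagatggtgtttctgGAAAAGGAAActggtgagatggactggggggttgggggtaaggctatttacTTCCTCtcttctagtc
Fcgr1, chr3:96293970-96294089, minus strand: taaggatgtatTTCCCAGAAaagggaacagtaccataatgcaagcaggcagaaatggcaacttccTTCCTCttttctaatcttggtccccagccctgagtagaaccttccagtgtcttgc
In the 250 bases before the RefSeq start, searched on both strands, the PU.1 core was found in Fcgr1, Fcgr3 and Fcgr4. The GAS element was found in Fcgr1 and the ISRE-like element in Fcgr4, while the windows of Fcgr2b, Fcer1g and Fcgrt held none of the 3. Of 32851 promoter windows of this length, 23.3% held the PU.1 core, 7.02% the GAS element and 2.98% the ISRE-like element. The windows of Fcgr2b (chr1:170976022-170976321) and Fcgr3 lay inside the annotated gene spans given above. For these genes the search therefore did not cover the bases before the outermost annotated start. Letters in a window are a description and do not show that a factor binds there.

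Microglia outside the graft expressed all 6 genes. Per length of exon, the signalling chain Fcer1g stood highest outside with 1293 ± 216 (SD, n = 4) CPM per kb, followed by Fcgr3 with 921 ± 89.9. Fcgr1, the high-affinity receptor, stood at 124 ± 2.46, Fcgrt at 73.4 ± 1.19 and Fcgr2b at 69.6 ± 2.76 CPM per kb. Fcgr4, an activating receptor that binds IgG2a and IgG2b, was lowest at 22.3 ± 2.63. In this order no gene overlapped its neighbour among the outside libraries, and by level Fcgr3 and Fcer1g were above 99.5% of all tested genes whereas Fcgr4 was above 60.2%. Inside the graft the per-kb order began in the same way, with Fcer1g at 1395 ± 268 (SD, n = 3), Fcgr3 at 1049 ± 178 and Fcgr1 at 137 ± 26.5 CPM per kb. Fcgr2b followed at 93.8 ± 22.4, Fcgrt at 67.4 ± 9.90 and Fcgr4 at 51.9 ± 22.7, and all neighbours in this order overlapped except Fcgr3 and Fcgr1. The place of Fcgr2b depended on the length used. By its longest CCDS transcript, chosen after seeing the data, it stood above Fcgrt outside (114 against 87.1 CPM per kb) and above Fcgr1 inside (153 against 137).

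Of the 4 receptor genes summed per kb, Fcgr3 supplied 78.8% ± 2.78 (SD, n = 3) inside and 80.9% ± 1.44 (n = 4) outside. Fcgr1 supplied 10.3% ± 0.654 inside and 10.98% ± 0.854 outside, and Fcgr2b 7.01% ± 0.671 and 6.14% ± 0.403. The share of Fcgr4 was 3.86% ± 1.48 inside and 1.97% ± 0.279 outside. Fcgr3 was therefore the bulk of the receptor transcripts in both places.

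None of the 6 genes passed an adjusted p of 0.05 between inside and outside, in edgeR's quasi-likelihood test (0 of 6) or in limma's voomWithQualityWeights (0 of 6), which gives each library a weight. Over all 15257 genes these tests called 0.0983% and 0.492%. The genes nearest to a call were Fcgr4 and Fcgr2b, the 2 of 6 with an unadjusted p below 0.05 in each test, against 9.55% of all genes with edgeR and 12.2% with voomWithQualityWeights. The same 2 were higher in every inside library than in every outside library, and 0 of 6 were lower without overlap. Over all genes, 5.65% were higher and 5.02% lower in this way. The median log2 fold change of the 6 genes was 0.17 (inside over outside), against -0.0064 for all genes tested.

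**Figure D1:**
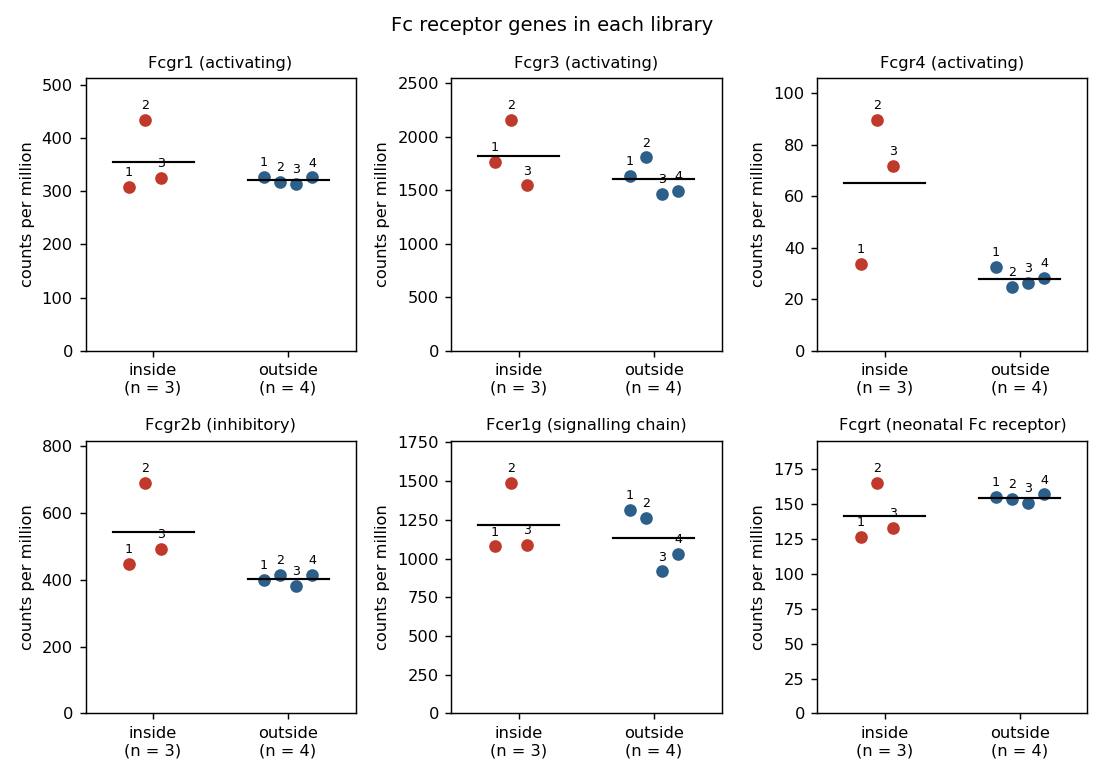
CPM (linear axis from 0) of the 6 Fc receptor genes in each library. Points are libraries with their replicate number, and black lines are group means. Fcgr4 and Fcgr2b are the genes whose inside and outside points do not overlap, and inside graft 2 is the highest library in every panel.

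Among the activating receptors, Fcgr1 measured 308, 434 and 326 CPM in inside grafts 1 to 3, and 328, 318, 315 and 326 CPM in outside grafts 1 to 4. Only inside graft 2 lay above the outside libraries, whose coefficient of variation was 1.98%. The log2 fold change was 0.15 (SE 0.13, edgeR adjusted p = 0.815), and it became -0.023 without inside graft 2.

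Fcgr3, which encodes the low-affinity receptor FcγRIII, measured 1763, 2155 and 1544 CPM inside and 1633, 1806, 1466 and 1492 CPM outside. The groups overlapped, with inside graft 3 below the outside mean of 1599 CPM. The log2 fold change was 0.19 (SE 0.13, edgeR adjusted p = 0.725), and it lay between 0.048 without inside graft 2 and 0.29 without inside graft 3.

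Fcgr4 had the largest difference of the 6. It measured 33.9, 89.7 and 71.9 CPM in inside grafts 1 to 3 and 32.5, 24.9, 26.4 and 28.4 CPM in outside grafts 1 to 4, on 863, 2021 and 1706 counts inside and 560 to 702 outside. Inside grafts 2 and 3 were far above every outside library, whereas inside graft 1 exceeded the highest outside library only narrowly. The log2 fold change was 1.22 (SE 0.28), a fold of 2.32 with a 95% confidence interval of 1.51 to 3.56, with an unadjusted p of 0.00135 and an adjusted p of 0.122 in edgeR. With voomWithQualityWeights it was 1.07 (adjusted p = 0.142). A share of 7.97% of all tested genes had a larger absolute fold change.

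The call on Fcgr4 depended on the method and on 1 library. DESeq2 called it (adjusted p = 0.0017), as did edgeR with no filter on low counts (adjusted p = 0.00355) and with at least 10 counts required in every library (adjusted p = 0.0495). These settings also called more genes of any kind, 420, 366 and 92, against 15 in the main edgeR fit. Without inside graft 1, the log2 fold change was 1.53 and the adjusted p 0.0438 in edgeR and 0.00415 in voomWithQualityWeights. Over all genes, edgeR then called 10 and voomWithQualityWeights 56. Over the alternatives run in any of these tests, the log2 fold change lay between 0.84 (voomWithQualityWeights without inside graft 2) and 1.68 (edgeR with inside graft 2, the highest library, as the only inside library, a setting chosen after seeing the data).

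The inhibitory receptor Fcgr2b measured 447, 691 and 492 CPM inside and 399, 416, 382 and 415 CPM outside. The groups did not overlap, and again inside graft 2 was highest and inside graft 1 nearest to the outside libraries. The log2 fold change was 0.43 (SE 0.15), a fold of 1.35 with a 95% confidence interval of 1.07 to 1.69, with an unadjusted p of 0.0149 and an adjusted p of 0.331 in edgeR. Without inside graft 2 it was 0.22 (adjusted p = 0.597). DESeq2 gave 0.45 with an adjusted p of 0.0853.

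Fcer1g measured 1078, 1489.5 and 1089 CPM inside and 1313, 1262, 917 and 1028 CPM outside. The groups overlapped widely, since this chain varied more among the outside libraries (coefficient of variation 16.7%) than any other of the 6 genes. The log2 fold change was 0.11 (SE 0.16, edgeR adjusted p = 0.904), and it turned to -0.059 without inside graft 2.

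Fcgrt measured 127, 165 and 133 CPM inside and 155, 154, 151 and 157 CPM outside. Inside grafts 1 and 3 lay below all outside libraries and inside graft 2 above them. The log2 fold change was -0.12 (SE 0.12, edgeR adjusted p = 0.838), and it lay between -0.25 without inside graft 2 and -0.047 without inside graft 1. Outside the graft Fcgrt was the steadiest of the 6, with a coefficient of variation of 1.62%.

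**Figure D2:**
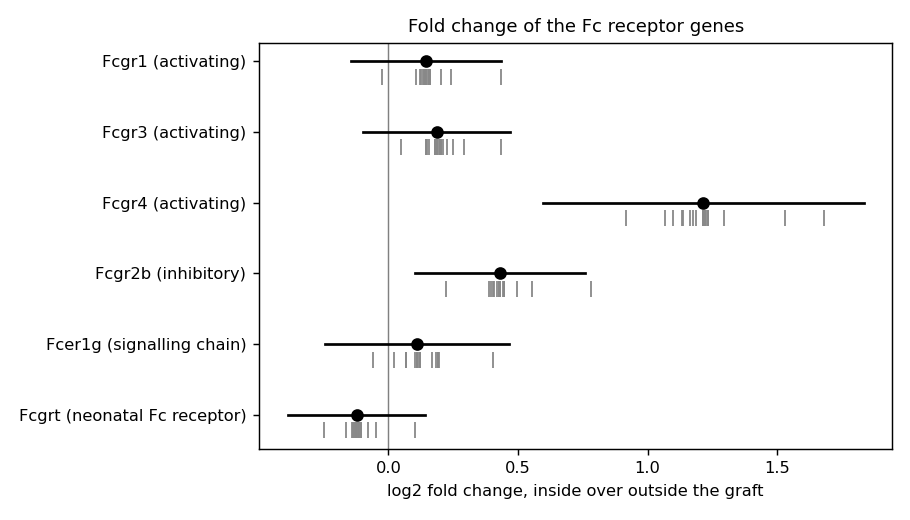
Log2 fold change of each gene inside over outside the graft. Black points with bars are the edgeR estimates with 95% confidence intervals, and grey ticks are the estimates under each alternative processing or with a library left out. The intervals of Fcgr4 (0.60 to 1.83) and Fcgr2b (0.10 to 0.76) lie above 0 before adjustment for the number of genes, and the other 4 include 0.

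The balance of activating to inhibitory receptors was compared as ratios within each library, which do not depend on how libraries were scaled. The libraries were permuted over all 35 splits into 3 and 4. The two-sided p was the doubled smaller tail, which cannot fall below 0.0571, and, chosen after seeing the data, the share of splits with at least as large an absolute difference, which cannot fall below 0.0286. The count of Fcgr1 over that of Fcgr2b was 0.688, 0.629 and 0.663 in inside grafts 1 to 3, and 0.822, 0.766, 0.823 and 0.786 in outside grafts 1 to 4. All inside libraries were below all outside libraries. The difference in mean log2 ratio was -0.28, a ratio 0.825 times that outside (exact permutation p = 0.0571, and 0.171 after adjustment over the 3 pairs). By the absolute difference the exact p was 0.0286 and 0.0857 after adjustment, and both unadjusted values are the smallest possible. The difference stayed between -0.31 and -0.24 with any 1 library left out.

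The count of Fcgr3 over Fcgr2b was 3.94, 3.12 and 3.14 inside and 4.09, 4.34, 3.84 and 3.59 outside. Inside grafts 2 and 3 were below every outside library and inside graft 1 was among them, with a difference in mean log2 ratio of -0.23 (exact permutation p = 0.171, adjusted 0.171, and 0.143 by the absolute difference, adjusted 0.143). Fcgr4 over Fcgr2b differed in the other direction, with 0.0757, 0.130 and 0.146 inside and 0.0814, 0.0599, 0.0690 and 0.0685 outside. Here inside grafts 2 and 3 were above every outside library and inside graft 1 was within their range. The difference in mean log2 ratio was 0.70 (exact permutation p = 0.114, adjusted 0.171, and 0.0571 by the absolute difference, adjusted 0.0857).

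Summed per kb, the 3 activating receptors over Fcgr2b gave 15.0, 12.4 and 12.6 inside and 15.9, 16.5, 15.0 and 14.1 outside. The inside mean of 13.4 ± 1.45 (SD, n = 3) was below the outside mean of 15.3 ± 1.06 (n = 4), with 1 inside library in the outside range, and this score was not tested. Fcgr3 made up most of this sum and Fcgr4 little of it, in either place. The same sum over the signalling chain Fcer1g was 0.890 ± 0.0445 inside and 0.836 ± 0.0885 outside, and its groups overlapped. The difference in mean log2 ratio was 0.095, and it was 0.030 when outside graft 1 was left out, 0.054 when inside graft 1 was and 0.15 when outside graft 3 was.

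**Figure D3:**
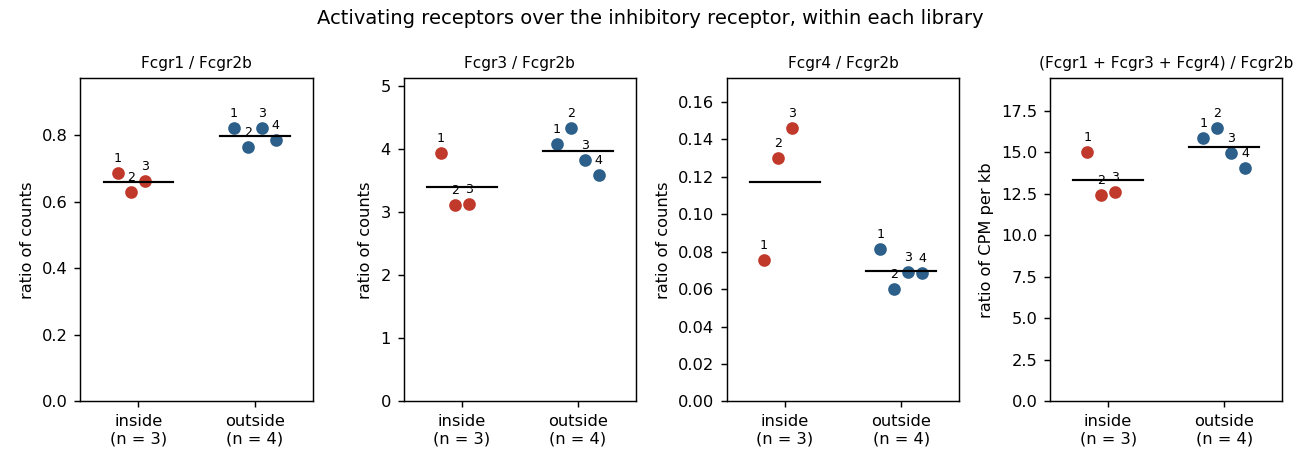
Ratio of each activating receptor, and of their sum per kb of exon, to Fcgr2b within each library (linear axes from 0). Points are libraries with their replicate number and black lines group means. Fcgr1 over Fcgr2b separates the groups with lower values inside, whereas in the other panels inside graft 1 lies in the range of the outside libraries.

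The 6 genes did not vary as 1 block over the 7 libraries. In log2 CPM, Fcgr2b correlated with Fcgr1 (Pearson r = 0.90) and with Fcgr4 (r = 0.90), and Fcer1g with Fcgr3 (r = 0.84), while Fcgrt and Fcgr4 were unrelated (r = -0.013). These values describe 7 points that fall into the 2 groups and share library depth and scaling. Of 8917 genes with a mean of 10 CPM or more, those most like Fcgr4 were Calhm6 (r = 0.977), the class I gene H2-Q6 (0.9754) and the chemokine Ccl12 (0.962). Those most like Fcgr2b were the class II peptide-loading gene H2-DMb1 (0.967), the class I gene H2-D1 (0.967) and Ccl12 (0.961). H2-Q6 and H2-D1 belong to a family with near-identical copies, so their counts are uncertain. Fcgr1 was followed most closely by Plbd2 (0.989) and the immunoproteasome subunit Psmb8 (0.959). Fcgr3 was followed by Syngr1 (0.995), Ost4 (0.993) and the lysosomal glycoprotein Cd68 (0.992), Fcer1g by Polr1d (0.997), Ndufa3 (0.996) and Gng5 (0.983), and Fcgrt by Nudt13 (0.972), 2610528A11Rik (0.965) and Zer1 (0.963).

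Downstream of the activating receptors, 0 of 20 signalling genes passed 0.05 in edgeR or in voomWithQualityWeights (2 at an unadjusted edgeR p below 0.05), with 8 above 0, 12 below and a median log2 fold change of -0.083. Syk, the kinase recruited to the ITAM, measured 182 ± 28.8 CPM inside and 208 ± 46.7 outside. The largest fold changes were those of the exchange factor Vav3 (log2 4.22, SE 1.62, edgeR adjusted p = 0.419), the Src-family kinase Fgr and the adaptor Lat2 (log2 0.37, edgeR adjusted p = 0.572). Vav3 was low everywhere, with 3.34, 0.044 and 5.64 CPM in inside grafts 1 to 3 and 0 to 0.607 CPM outside, with overlap. Fgr measured 25.7, 37.6 and 22.3 CPM inside and 13.9, 8.90, 4.18 and 13.8 CPM outside, without overlap (log2 1.48, SE 0.38, edgeR adjusted p = 0.162).

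On the inhibitory side, 0 of 12 genes passed in either of these tests (2 at an unadjusted edgeR p below 0.05), with 6 above and 6 below 0 and a median of -0.042. Inpp5d, the SHIP1 phosphatase that FcγRIIb recruits, measured 1119 ± 25.87 CPM inside and 1248 ± 144 outside (log2 -0.16, edgeR adjusted p = 0.729). Csk, the kinase that restrains Src-family kinases, measured 88.8, 91.6 and 80.9 CPM inside and 112 to 117 CPM outside, lower inside without overlap (log2 -0.40, SE 0.11, edgeR adjusted p = 0.172). The adaptor Dok3 had a log2 fold change of -0.43 (edgeR adjusted p = 0.42) and Dok2, at 3.82 CPM inside, one of 1.14 (edgeR adjusted p = 0.793). Syk and Inpp5d are named for their role, after their values were seen.

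The actin genes of the phagocytic cup likewise gave 0 of 20 calls in edgeR and voomWithQualityWeights, 5 at an unadjusted edgeR p below 0.05 and a median of 0.095. Of these 20, 4 were higher and 2 lower without overlap. Gsn (gelsolin, which severs actin filaments) measured 46.8, 17.9 and 63.7 CPM inside and 4.51 to 10.6 CPM outside (log2 2.35, SE 0.41, adjusted p = 0.071 in edgeR and 0.0546 in voomWithQualityWeights). It was lowest of the inside libraries in inside graft 2, unlike the receptors. Rac2 had a log2 fold change of 0.44 (edgeR adjusted p = 0.288), and the motor Myo10 one of 1.31 (edgeR adjusted p = 0.604), for which inside graft 3 was the only high library with 15.9 CPM.

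Of 11 other Fc receptors and Fc receptor-like genes, 4 could be tested and 0 were called, with 0 at an unadjusted edgeR p below 0.05. Fcrls, a receptor-like gene typical of microglia and named after its values were seen, measured 2603 ± 545 CPM inside and 2642 ± 575 outside, while Fcrl1 had a log2 fold change of -0.46, the intracellular IgG receptor Trim21 one of -0.28 and Fcrlb one of 0.82. Of 10 adaptors and partner chains, 3 were tested and 0 called in edgeR or voomWithQualityWeights, with 2 at an unadjusted edgeR p below 0.05. B2m, the partner of FcRn and of class I molecules, measured 4108, 6675 and 3621 CPM inside and 3921, 3375, 2551 and 3029 CPM outside, with overlap (log2 0.58, SE 0.20, edgeR adjusted p = 0.358). Tyrobp, which encodes the ITAM adaptor DAP12, had a log2 fold change of 0.56 (edgeR adjusted p = 0.482) and Hcst, which encodes DAP10, one of 0.42 (edgeR adjusted p = 0.686), against 0.11 for Fcer1g.

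Immunoglobulin transcripts were searched for because IgG is the ligand. Of 13 genes, which are constant regions and the J chain, 7 had 0 counts in all libraries. Of the 13, 3 were tested, with 0 called and 0 at an unadjusted edgeR p below 0.05. The µ heavy chain Ighm measured 551 ± 25.6 CPM inside and 593 ± 31.4 outside and the δ heavy chain Ighd 22.2 ± 4.22 and 26.4 ± 6.89 CPM. Both were present without the κ light chain Igkc, which reached at most 0.126 CPM, and Ms4a1, which marks B cells, was at 0 in every library. Ighg2b, the IgG heavy chain that was tested, was at 0 in 4 of the 7 libraries and reached at most 1.57 CPM.

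All 12 interferon response genes, a list chosen with earlier results of these data known, had a log2 fold change above 0. Their median log2 fold change was 1.03, and 8 of 12 were higher inside without overlap. Only Ifitm3, 1 of 12, was called by voomWithQualityWeights (adjusted p = 0.0374), and edgeR called 0 of 12, with 10 of 12 at an unadjusted p below 0.05. Of all tested genes, 49.2% were above 0, 5.65% were higher inside without overlap and 9.55% had an unadjusted edgeR p below 0.05. Ifitm3, an antiviral membrane protein, measured 73.8, 152 and 115 CPM inside and 47.5, 28.2, 20.4 and 40.3 CPM outside (log2 1.74, SE 0.30, edgeR adjusted p = 0.0682). Summed over the 12 genes, the level was 623, 1136 and 745 CPM in inside grafts 1 to 3 and 520, 318, 315 and 465 CPM in outside grafts 1 to 4. Inside graft 2 was highest and inside graft 1 lowest of the inside libraries and nearest to the outside ones. The inside libraries stood in the same order for Fcgr4 and Fcgr2b. They also did for Fcgr1, Fcer1g and Fcgrt, whose groups overlapped, but not for Fcgr3. A link between the interferon response genes and the receptors was not tested.

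**Figure D4:**
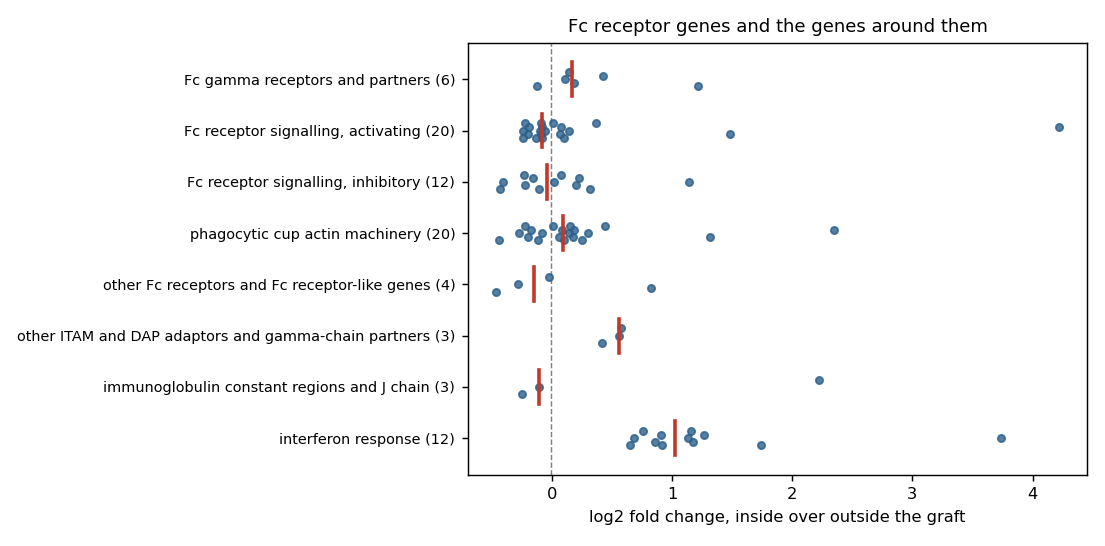
Log2 fold change (inside over outside, edgeR) of each tested gene of the Fc receptor family and of 7 lists around it, with the number of genes tested in brackets. Blue points are genes, red bars list medians and the dashed line the median of all tested genes (-0.0064). The interferon response genes all lie above 0, whereas the signalling lists scatter around it.

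Neutrophils and monocytes also carry Fcγ receptors, so transcripts of their markers were set beside those of the receptors. The sort took CD11b+CD45low cells, and the gating to which its methods refer also had Ly6G and Ly6C among added lineage markers. Inside graft 1 held 7506 CPM of neutrophil and 717 CPM of monocyte markers with Fcgr4 at 33.9 CPM. Inside graft 2 held 794 and 81.0 CPM of them with Fcgr4 at 89.7 CPM, and inside graft 3 held 15289 and 1484 CPM with Fcgr4 at 71.9 CPM. The 3 inside libraries stood in a different order for Fcgr4 than for either sum, and the source of the Fcgr4 reads was not tested. Of the neutrophil markers, 7 of 8 were tested, 0 were called by edgeR (6 at an unadjusted p below 0.05), 5 were higher inside without overlap, and the defining S100a8 reached 4077 CPM in inside graft 3 and at most 80.3 CPM outside. S100a9 reached 3834 and 85.9 CPM. Of the monocyte markers, 7 of 8 were tested, 0 called by edgeR (6 at an unadjusted p below 0.05) and 3 higher without overlap, with the defining Ly6c2 at 23.9, 1.73 and 71.7 CPM inside and at most 0.891 CPM outside. Ccr2 was at 31.8, 4.26 and 73.0 CPM inside and 4.06 to 18.1 CPM outside.

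Border-associated macrophage markers summed to 396 to 649 CPM inside and 533 to 632 CPM outside, most of it from Stab1. Of 7 tested, 6 had a log2 fold change above 0 and Stab1 (-0.28) was the 1 below, with a median of 3.36. EdgeR and voomWithQualityWeights called 0, with 5 at an unadjusted edgeR p below 0.05. Pf4 and Ms4a7, named after their values were seen, were the 2 higher inside without overlap. The defining gene Mrc1 was at 61.2, 7.81 and 48.6 CPM in inside grafts 1 to 3, against 4.18 to 14.2 CPM outside. Cd163, the other defining gene, was at 3.77, 0 and 3.29 CPM in inside grafts 1 to 3, against 0 to 0.845 CPM outside. The mast cell gene Cpa3 was at 0 throughout. The part of these other cells in the values of the receptors was not tested.

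**Figure D5:**
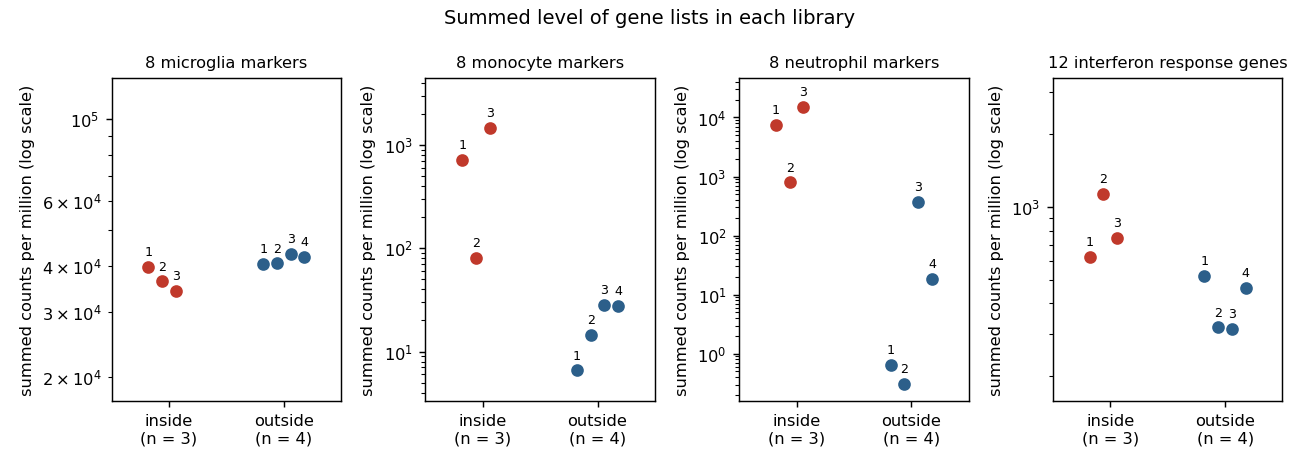
Summed CPM (log axes) of the microglia, monocyte and neutrophil markers and of the interferon response genes in each library, with replicate numbers. Neutrophil and monocyte sums are lowest among the inside libraries in inside graft 2 (794 and 81.0 CPM), the library with the highest interferon response sum (1136 CPM).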

How the data were processed

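RNA was sequenced from sorted microglia of 3 inside and 4 outside samples, grouped by their labels. According to the submitters' processing notes, bcl2fastq 2.18, STAR 2.7.2a and featureCounts 1.6.2 were used with GRCm38.p6. The authors deposited raw counts per gene name on the GENCODE M21 annotation, without normalization, ignoring strand and leaving out reads with several alignments. SMARTer cDNA was amplified without molecular identifiers, so a count overstates the molecules sampled.

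From these counts, genes were filtered with filterByExpr and normalized with TMM, giving CPM. Tests were edgeR 4.0.16 (glmQLFit and glmQLFTest, the main test), limma 3.58.1 (voomWithQualityWeights, as in the study) and, as an alternative, DESeq2 1.42.0, in R 4.3.3, all with Benjamini-Hochberg adjustment and a threshold of 0.05, against 0.01 in the study. In edgeR and limma the adjustment was over 15257 genes, except where the filter or the libraries were changed. DESeq2 started from the same genes with its default filtering, which can leave genes out of the adjustment. An edgeR SE was taken as the fold change over the root of its F statistic. Levels per kb used the summed exon length deposited with the counts. Ratios were tested with exact two-sided permutation tests over libraries (the doubled smaller tail, with the absolute difference as an alternative). Scripts were tested on simulated data. Promoter windows of all 6 genes, 7 in number, were matched by symbol to RefSeq.

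The receptor genes and all gene lists were chosen with earlier results of these data known. Genes named besides the 6 were, for each pathway list, those past 0.05 in either test or otherwise the 3 largest fold changes, the 3 most correlated with each receptor gene, and the first 2 markers of each cell type the text turns on, apart from those said to be named later and a few that are not reported here.

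The other marker lists gave 0 calls and low sums. B and plasma cell markers summed to 51.7 to 91.9 CPM, nearly all from Cd79b and Cd22, T and NK cell markers to 0.16 to 12.7, dendritic cell markers to 4.32 to 22.6, mast cell markers to 0 to 4.00, endothelial markers to 1.47 to 8.61 and neuronal markers to 3.73 to 10.9 CPM. Astrocyte markers summed to 247 to 350 CPM, mostly Slc1a3, and oligodendrocyte markers to 66.2 to 76.8 CPM. Alternatives were other normalizations, filters and tests, the replicate number as a block, summed Fcgr2b and Fcgr3 counts, other lengths and each library left out.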

Additional observations from a re-analysis of the deposited data

How the results depend on the processing

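The direction of Fcgr3, Fcgr4 and Fcgr2b and of all 5 ratios was the same under every alternative run. In edgeR, leaving out libraries gave log2 fold changes of -0.023 to 0.24 for Fcgr1 and -0.059 to 0.19 for Fcer1g, both below 0 without inside graft 2, and 0.92 to 1.53 for Fcgr4. In voomWithQualityWeights without inside graft 2, Fcgr1 was at -0.022, Fcer1g at 0.042 and Fcgr4 at 0.84. Fcgrt turned above 0 (0.10) with inside graft 2 alone, the highest inside library for all 6 genes, taken after seeing the data and assumed to vary like the others. Fcgr4 passed 0.05 in edgeR with no filter (log2 1.22), under the stricter filter of 10 counts per library (1.23) and without inside graft 1 (1.53). It also passed 0.05 in DESeq2 (log2 1.23). The number of the 6 genes called was 1 under each of these and 0 in the other edgeR fits. In voomWithQualityWeights that number was 1, again Fcgr4, under the replicate block and without inside graft 1, and leaving out libraries gave 0 to 1 in both tests.

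Counts of called genes depended strongly on the processing. Against 15 genes, edgeR called 366 with no filter, 92 under the stricter filter, 3 with inside graft 2 alone, 0 at a threshold of 0.01 and 0 to 73 with a library left out (73 when inside graft 2 was dropped, 4 when outside graft 2 was, and 0 for inside graft 3 or outside graft 4), and DESeq2 called 420. Against 75, voomWithQualityWeights called 211 under it, 3 at 0.01 and 1 to 207 with a library left out (207 when inside graft 2 was dropped, 48 for inside graft 3, 36 for outside graft 1, and 1 for outside graft 3 or 4). The cause was not tested.

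Whether the replicate numbers pair the libraries is not known. Deviations of same-numbered libraries correlated by -0.033, 0.075 and 0.062, and those of differently numbered ones by -0.13 to 0.066. These values cannot decide the question, and the labels do not say. With the replicate number as a block and without outside graft 4, edgeR called 43 genes and voomWithQualityWeights 265. On the same libraries without the block, edgeR called 0 and voomWithQualityWeights 1. With the block, Fcgr4 had a log2 fold change of 1.13 (edgeR adjusted p = 0.384) and 1.44 (voomWithQualityWeights adjusted p = 0.015).

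Leaving out libraries moved the difference in log2 ratio to Fcgr2b between -0.34 and -0.17 for Fcgr3 and between 0.52 and 0.99 for Fcgr4. The inside libraries also differ among themselves in transcripts of neutrophil and monocyte markers.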
